A study of Mus musculus with 9 samples.

Results

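The dystrophin-sarcoglycan complex was followed in the heart through 8 genes: Dag1, Sgca, Sgcb, Sgcd, Sspn, Dmd, Utrn and Dtna. They were chosen by gene symbol, all 8 were found among the 13539 genes listed, and all 8 were among the 8543 genes tested. The hearts came from 12-week-old male mice on the C57BL/6JOlaHsd background, and total RNA of the heart was sequenced with 3 libraries in each of 3 groups. In the KO ISO group, mice lacking OMA1, a protease of the mitochondrial inner membrane that responds to stress, received isoproterenol, a beta-adrenergic agonist, at 10 mg/kg/day from implanted minipumps for 7 days. In the WT ISO group, wild-type mice received the same treatment. In the KO untreated group, OMA1 KO mice were not treated, so that any difference from KO ISO also includes the implantation of a pump. No untreated wild-type library was analysed here, so the response of wild-type hearts to isoproterenol, and whether it differed from that of knockout hearts, was not tested. The labels do not say that the 3 libraries of a group came from separate animals, so the p-values measure the spread between these libraries, which may be technical.

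In striated muscle, dystrophin ties the actin cytoskeleton to dystroglycan in the cell membrane, and dystroglycan binds laminin in the basement membrane through sugar chains on its outer subunit. The sarcoglycans and sarcospan form a membrane subcomplex that holds dystroglycan and dystrophin together, while dystrobrevin and the syntrophins bring signalling proteins to the inner face. The complex protects the cardiomyocyte membrane during contraction, and loss of dystrophin or of delta-sarcoglycan causes cardiomyopathy in humans and in mice.

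The libraries held 6933879 to 12187701 reads, and the deposited values are normalised read counts in which each library was scaled by a factor of its own. Oma1, the targeted gene, had 6.74, 5.73 and 6.25 in KO ISO hearts, 22.01, 19.9 and 17.7 in WT ISO hearts, and 6.52, 9.10 and 6.63 in KO untreated hearts, so all 6 knockout libraries lay below all 3 wild-type ones (KO ISO minus WT ISO, log2 difference -1.53 ± 0.14 SE, limma adjusted p = 4.70e-05). Transcripts encoded in mitochondrial DNA took 38.2 to 42.5% of the values in KO ISO libraries, 36.7 to 37.3% in WT ISO libraries and 33.9 to 34.6% in KO untreated libraries. The summed level of 16 ventricular cardiomyocyte markers was 69493 to 75056 in KO ISO, 67864 to 78682 in WT ISO and 80397 to 85935 in KO untreated hearts. Single genes of this list went both ways between KO ISO and WT ISO, with log2 differences of -0.66 to 0.45. There 5 were called lower and 2 higher, beside 15.9% lower and 12% higher of all genes tested. Against KO untreated, 6 were lower and 1 higher in KO ISO, beside 27.4% lower and 23.9% higher. The sum of 14 endothelial markers was 2387 to 2915 in KO ISO, 1890 to 2039 in WT ISO and 1393 to 1529 in KO untreated hearts. The sum of 12 fibroblast markers was 3028 to 3178 in KO ISO, 2688 to 4929 in WT ISO and 2126 to 2233 in KO untreated hearts, and that of 11 macrophage markers 414 to 477 in KO ISO, 343 to 503 in WT ISO and 301 to 416 in KO untreated hearts. The sum of 12 smooth muscle and pericyte markers was 2436 to 2775 in KO ISO, 2765 to 3129 in WT ISO and 2236 to 2406 in KO untreated hearts. Of 9 atrial myocyte markers, 2 or 3 were at 0 in every treated library, Bmp10 among them, and the list summed to 125 to 163 in KO ISO, 86.5 to 887 in WT ISO and 1214 to 2701 in KO untreated hearts. The wide WT ISO ranges came from replicate 3, at 887 for atrial markers against 86.5 and 120 in the other WT ISO libraries. For fibroblast markers it was at 4929 against 2688 and 2869. It also had the highest macrophage and the lowest ventricular sum of its group. Of 11 skeletal muscle markers, 3 were listed, of which Ckm and Acta1 are also expressed in the heart. Endothelial markers were thus higher in KO ISO than in either other group, and the atrial sum, in which Nppa is the largest term, was higher in every KO untreated library than in every treated one. Kcna5, on the atrial list, went the other way, with 25.5 ± 2.83 in KO ISO, 17.0 ± 1.04 in WT ISO and 9.84 ± 0.575 in KO untreated hearts (SD, n = 3 each).

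Among the 8 genes, 6 were lower in KO ISO than in WT ISO hearts and none was higher, where 15.9% of all genes tested were lower, 12% were higher and 27.8% passed in either direction. The fall was deepest for Sgcd, delta-sarcoglycan, which in KO ISO hearts stood at 37.6% of its WT ISO mean, followed by Dag1 at 54.3%, Dmd at 60.4%, Sspn at 68.2%, Sgcb at 70.4% and Dtna at 72.5%. Sgca, alpha-sarcoglycan, did not pass the test there, and Utrn, the dystrophin paralog utrophin, missed the threshold. Against KO untreated hearts, 7 of the 8 were lower in KO ISO, all but Utrn, where 27.4% of all genes tested were lower, 23.9% were higher and 51.4% passed in either direction. The median log2 difference over the 8 genes was -0.53 against WT ISO, beside -0.01 over all genes tested, and -0.60 against KO untreated, beside -0.02 over all genes. These 2 comparisons share the KO ISO libraries. The endothelial sum and the mitochondrial share differed without overlap in both comparisons. Against KO untreated, KO ISO hearts also had lower ventricular cardiomyocyte and atrial sums and higher fibroblast and smooth muscle sums, without overlap. The part of these marker lists and of the mitochondrial share in the differences was not tested, other than by the scaling to cardiomyocyte markers given further on. In bulk hearts, fewer cells of a type and less RNA per cell cannot be told apart.

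**Figure D1:**
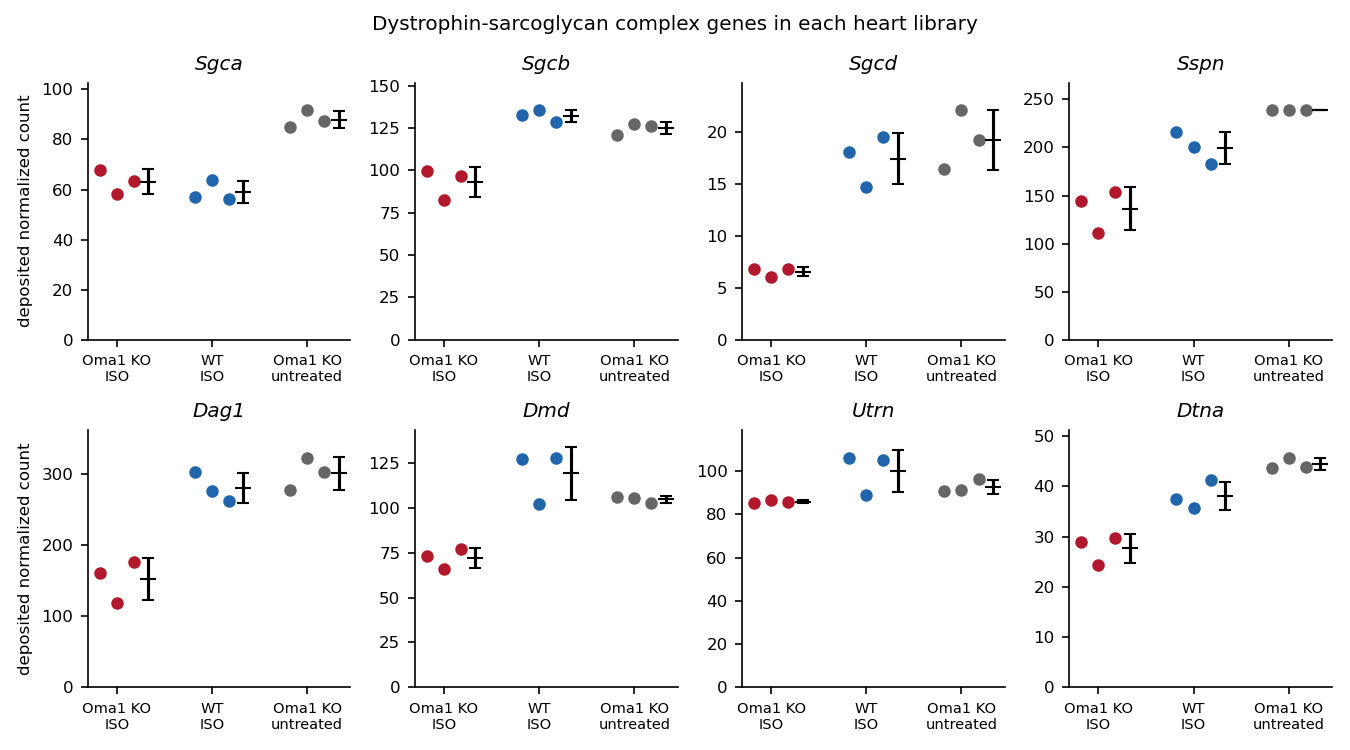
Deposited normalised count of each of the 8 complex genes in every library (points) with the group mean and SD (bars), in KO ISO, WT ISO and KO untreated hearts from left to right; each panel has its own y axis. Sgcd lies between 6.05 and 6.84 in KO ISO and at 14.8 or above in the other libraries, while Sgca is high only in KO untreated hearts.

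Promoter sequences are given for the genes with the deepest falls, so that their proximal elements can be compared. They come from RefSeq (GRCm38.p6), run 5′ to 3′ on the strand of the gene and cover 250 bases before to 50 bases after the annotated start. Capitals mark the matches to 4 motifs searched on both strands: the MCAT element CATTCC, which TEAD factors bind, the cyclic AMP response element half-site TGACG, the CArG box and the MEF2 element. The Sgcd and Dag1 starts are on the minus strand at chr11:47379276-47379575 and chr9:108263909-108264208, and those of Sspn and Dmd are on the plus strand at chr6:145933872-145934171 and chrX:82948620-82948919. 
Sgcd promoter: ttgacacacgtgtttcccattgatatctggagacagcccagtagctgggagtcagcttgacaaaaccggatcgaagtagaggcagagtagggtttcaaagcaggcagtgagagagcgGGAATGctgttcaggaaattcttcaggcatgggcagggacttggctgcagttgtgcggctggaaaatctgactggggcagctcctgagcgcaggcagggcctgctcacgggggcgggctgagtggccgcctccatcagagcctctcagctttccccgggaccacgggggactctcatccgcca
Dag1 promoter: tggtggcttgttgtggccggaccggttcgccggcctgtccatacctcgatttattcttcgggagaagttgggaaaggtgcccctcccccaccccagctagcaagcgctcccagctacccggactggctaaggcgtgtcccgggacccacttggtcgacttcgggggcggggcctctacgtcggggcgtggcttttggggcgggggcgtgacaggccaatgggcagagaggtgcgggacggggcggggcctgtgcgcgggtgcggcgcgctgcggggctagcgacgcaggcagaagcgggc
Sspn promoter: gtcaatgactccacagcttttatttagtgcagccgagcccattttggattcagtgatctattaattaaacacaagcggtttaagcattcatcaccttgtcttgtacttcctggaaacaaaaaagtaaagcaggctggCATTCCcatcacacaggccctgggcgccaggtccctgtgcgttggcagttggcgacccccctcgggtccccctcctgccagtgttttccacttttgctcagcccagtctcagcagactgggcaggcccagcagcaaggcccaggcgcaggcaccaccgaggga
Dmd promoter: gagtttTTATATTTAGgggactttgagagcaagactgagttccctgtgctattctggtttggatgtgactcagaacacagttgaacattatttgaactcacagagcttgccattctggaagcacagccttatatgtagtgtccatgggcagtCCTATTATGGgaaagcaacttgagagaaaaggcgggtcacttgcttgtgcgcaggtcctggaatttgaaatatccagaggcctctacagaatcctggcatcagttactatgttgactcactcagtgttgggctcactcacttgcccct

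The Sgcd window holds an MCAT element, on the opposite strand, that begins 133 bases before the start. The Sspn window printed holds one that begins 113 bases before it, and a second annotated Sspn start, at chr6:145931623-145931922, has one 209 bases before it. Of 32851 promoters of the same length, 14.66% hold an MCAT element. The Dmd window holds a MEF2 element 244 bases and a CArG box 98 bases before the start, and 3.187% and 1.629% of all promoters hold them. The half-site, which 20.81% of promoters hold, is not in any of the windows of the members read here. None of the 4 motifs was found in the window of a second Dmd start at chrX:85048045-85048344, in the Dag1 window printed, in a second Dag1 start at chr9:108263766-108264065, or in the windows of Sgcb, Utrn and Sgca. The RefSeq starts used for Sgcd and Utrn lie inside the longer extents that GENCODE gives these genes, so neither window covers the upstream end of that extent. A match or its absence describes letters in a window of this length.

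Dag1 encodes dystroglycan, whose cleaved product gives both the laminin-binding alpha subunit and the beta subunit that spans the membrane and binds dystrophin. The gene (ENSMUSG00000039952) lies on the minus strand at chr9:108204634-108263958 (GRCm38). Its normalised counts were 161, 119 and 176 in KO ISO hearts, against 303, 276 and 262 in WT ISO hearts and 277, 323 and 303 in KO untreated hearts. All 3 KO ISO libraries lay below the 6 others, and the other groups overlapped. The log2 difference, taken on log2(value + 1) throughout, was -0.89 ± 0.12 (SE) from WT ISO (limma adjusted p = 0.000517) and -0.997 ± 0.12 from KO untreated (adjusted p = 2.12e-05). WT ISO and KO untreated hearts differed by -0.10, with a 95% interval of -0.36 to 0.15 (adjusted p = 0.537).

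Among the sarcoglycans of the 8 genes, Sgcd had the steepest difference and the lowest counts. Delta-sarcoglycan pairs with beta-sarcoglycan to form the core on which the tetramer is assembled. Sgcd (ENSMUSG00000020354) lies on the minus strand at chr11:46896253-47988969. It had 6.84, 6.05 and 6.81 in KO ISO hearts, against 18.1, 14.8 and 19.5 in WT ISO hearts and 16.4, 22.1 and 19.2 in KO untreated hearts. The KO ISO libraries lay far below all others, and the other groups overlapped. These values rest on 58 to 84 reads per KO ISO library, 128 to 203 per WT ISO library and 136 to 180 per KO untreated library. The log2 difference was -1.28 ± 0.13 from WT ISO (limma adjusted p = 8.71e-05) and -1.41 ± 0.13 from KO untreated (adjusted p = 3.37e-06). With a pseudocount of 10 in place of 1 the differences were -0.72 and -0.82, and with edgeR on the recovered reads they were -1.40 and -1.53. All KO ISO values of Sgcd were below 10, so it met the filter of 10 in 3 or more libraries only through the other groups. Of the 8543 genes so filtered, 8 had a more negative log2 difference between KO ISO and WT ISO than Sgcd, given as a description.

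Sgcb encodes beta-sarcoglycan and lies on the minus strand at chr5:73632749-73647790 (ENSMUSG00000029156). It had 99.6, 82.8 and 96.7 in KO ISO hearts, against 132, 136 and 128 in WT ISO hearts and 121, 127 and 126 in KO untreated hearts. Again the 3 KO ISO libraries were the lowest of the 9. The log2 difference was -0.51 ± 0.08 (SE) from WT ISO (limma adjusted p = 0.00106) and -0.42 ± 0.08 from KO untreated (adjusted p = 0.000522).

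Sgca encodes alpha-sarcoglycan, which joins the core made by the beta and delta subunits, and it showed another pattern from its partners. The gene (ENSMUSG00000001508) lies on the minus strand at chr11:94962791-94976327 and overlaps Hils1, a protein-coding gene on the plus strand. Whether strand was used in counting is not stated, so reads of these genes cannot be told apart where they overlap. It had 67.9, 58.2 and 63.5 in KO ISO hearts, against 56.9, 63.9 and 56.0 in WT ISO hearts and 84.9, 91.7 and 87.2 in KO untreated hearts. The KO ISO and WT ISO groups overlapped, and both lay below KO untreated. KO ISO differed from WT ISO by 0.10, with a 95% interval of -0.07 to 0.27 (limma adjusted p = 0.374), and this sign turned to -0.07 once length and GC content were corrected for. Sgca was lower than in KO untreated hearts both in KO ISO (log2 difference -0.47 ± 0.08, adjusted p = 0.000301) and in WT ISO (-0.57 ± 0.08, adjusted p = 0.000164). It was the only one of the 8 genes called between WT ISO and KO untreated, where 33.2% of all genes tested were called, 16.9% lower and 16.4% higher, and where genotype and treatment both differ.

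The make-up of the sarcoglycan transcripts was therefore compared per length, as the deposited value per kilobase of the longest protein-coding GENCODE transcript. Sgcd made up 4.198% ± 0.105 of the summed Sgca, Sgcb and Sgcd level in KO ISO hearts, against 9.38% ± 1.58 in WT ISO hearts and 8.53% ± 0.895 in KO untreated hearts (SD, n = 3 each). Every KO ISO library, at 4.08 to 4.27%, lay below every other, at 7.63% or above. The share of Sgca was 57.4% in KO ISO, 44.8% in WT ISO and 55.6% in KO untreated hearts. The ratio of Sgcd to Sgcb counts was 0.0707 ± 0.0022 in KO ISO, 0.132 ± 0.0219 in WT ISO and 0.154 ± 0.0190 in KO untreated hearts. The 3 KO ISO ratios were below all others, and each exact two-sided permutation test of KO ISO gave p = 0.1, the smallest that 3 against 3 allows (Benjamini-Hochberg adjusted over 9 ratio tests, 0.15). The ratio of Sgcd to Sgca was 0.104 ± 0.00326 in KO ISO, 0.299 ± 0.0608 in WT ISO and 0.218 ± 0.0240 in KO untreated hearts, again without overlap of KO ISO with either group (exact permutation p = 0.1 in both, adjusted 0.15). A ratio within a library is not moved by the scaling of that library, but it shows unequal change and not which of its genes moved. These shares and ratios were not corrected for length and GC content, in which Sgca (1724 bases, 56.67% GC) and Sgcd (2450 bases, 38.65% GC) differ. With that correction the log2 difference of KO ISO from WT ISO was -1.18 for Sgcd and -0.07 for Sgca, beside -1.28 and 0.10 without it.

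Sspn encodes sarcospan, a tetraspanin-like protein bound to the sarcoglycans. It lies on the plus strand at chr6:145931641-145965223 (ENSMUSG00000030255) and overlaps the antisense gene Sspnos. The sources used here do not say whether strand was used in counting, so reads of the 2 genes cannot be told apart. Sspn had 144, 111 and 153 in KO ISO hearts, against 216, 201 and 183 in WT ISO hearts and 239, 239 and 238 in KO untreated hearts. The 3 groups did not overlap, with KO ISO the lowest and KO untreated the highest. The log2 difference of KO ISO was -0.56 ± 0.10 (SE) from WT ISO (limma adjusted p = 0.00265) and -0.82 ± 0.10 from KO untreated (adjusted p = 3.47e-05). WT ISO differed from KO untreated by -0.26 ± 0.10 (adjusted p = 0.0724).

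Dmd encodes dystrophin, the rod-like protein that links actin to beta-dystroglycan, and lies on the plus strand at chrX:82948870-85206141 (ENSMUSG00000045103). It had 73.1, 65.9 and 77.2 in KO ISO hearts, against 128, 102 and 128 in WT ISO hearts and 106, 106 and 103 in KO untreated hearts. The KO ISO libraries were the lowest of the 9, and the other groups overlapped. The log2 difference was -0.72 ± 0.09 from WT ISO (limma adjusted p = 0.000403) and -0.54 ± 0.09 from KO untreated (adjusted p = 0.000326). WT ISO differed from KO untreated by 0.18, with a 95% interval of -0.02 to 0.38 (adjusted p = 0.157). The counts are per gene, so the full-length and the short dystrophin transcripts are not separated.

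Utrn encodes utrophin, which resembles dystrophin and can take its place in dystrophin-deficient muscle of mice. It lies on the minus strand at chr10:12382188-12869365 (ENSMUSG00000019820). It had 85.3, 86.5 and 85.6 in KO ISO hearts, against 106, 89.0 and 105 in WT ISO hearts and 90.8, 91.1 and 96.6 in KO untreated hearts. The KO ISO libraries were nearly equal and below the 6 others, by a narrow margin. The log2 difference was -0.22 from WT ISO, with a 95% interval of -0.38 to -0.05 (limma adjusted p = 0.0519), and -0.11 from KO untreated, with an interval of -0.28 to 0.05 (adjusted p = 0.239). Without WT ISO replicate 2 the difference from WT ISO was -0.30 (adjusted p = 0.0176), and with the stricter filter on low values, a mean of at least 20, the adjusted p was 0.0441. Within libraries, the ratio of Utrn to Dmd counts was 1.167, 1.31 and 1.11 in KO ISO hearts, against 0.833, 0.871 and 0.819 in WT ISO hearts and 0.857, 0.861 and 0.941 in KO untreated hearts. The 3 KO ISO ratios were above all others (exact permutation of the log2 ratio, p = 0.1 against each group, adjusted 0.15). These counts are not divided by transcript length, so their ratio does not show which transcript was more abundant. Per kilobase, Utrn averaged 6.93 and Dmd 4.83 in KO ISO hearts. Utrn was also above Dmd in WT ISO (8.08 and 8.004, with overlap) and KO untreated hearts (7.50 and 7.03).

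Dtna encodes alpha-dystrobrevin, a dystrophin-related protein on the inner face of the membrane that carries syntrophins. It lies on the plus strand of chromosome 18 (23415135 to 23659715, ENSMUSG00000024302), overlapping an antisense gene, Gm47898, whose reads cannot be told apart from its own. It had 28.9, 24.3 and 29.8 in KO ISO hearts, against 37.5, 35.6 and 41.2 in WT ISO hearts and 43.6, 45.7 and 43.8 in KO untreated hearts. The 3 groups did not overlap and followed the order of Sspn. The log2 difference of KO ISO was -0.45 ± 0.09 (SE) from WT ISO (limma adjusted p = 0.00345) and -0.67 ± 0.09 from KO untreated (adjusted p = 4.64e-05), and WT ISO differed from KO untreated by -0.22 ± 0.09 (adjusted p = 0.0765). With transcript length and GC content corrected for, the difference from WT ISO was -0.30.

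In all, the KO ISO libraries lay below all WT ISO libraries for 7 of the 8 genes, where 23.6% of all genes tested were lower without overlap, and below all KO untreated libraries for all 8, where 33.4% of all genes tested were. Replicate 2 of KO ISO was the lowest of its group for 7 of the 8 genes, and it had the highest share of mitochondrial transcripts. Without it the same 6 genes were called against WT ISO, with log2 differences of -1.23 for Sgcd, -0.73 for Dag1, -0.65 for Dmd, -0.42 for Sspn, -0.42 for Sgcb and -0.36 for Dtna. Over all genes, 1342 were called without that library, beside 2379 with it. Scaling each library to its summed ventricular cardiomyocyte markers, an alternative added after seeing the data, put the median of all genes between KO ISO and KO untreated at 0.18, in place of -0.02. On that scale the 7 genes were still called there, with smaller differences of -0.21 for Sgcb, -0.26 for Sgca and -0.33 for Dmd. Of the 8543 genes tested, 4436 were called there on that scale. Against WT ISO, Sgcd was at -1.24, Dag1 at -0.85 and Dmd at -0.67 on that scale.

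**Figure D2:**
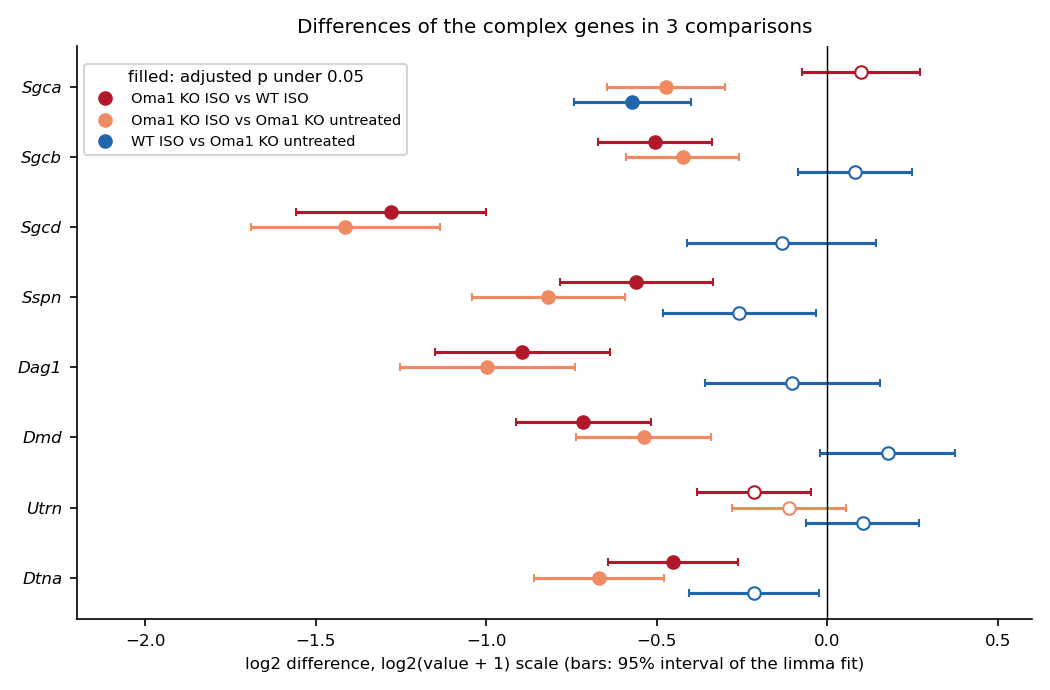
Log2 difference of each complex gene (points, with 95% intervals) for KO ISO minus WT ISO, KO ISO minus KO untreated and WT ISO minus KO untreated; filled points passed an adjusted p of 0.05 in limma. Sgcd and Dag1 are lowest in both comparisons of KO ISO, and Sgca alone is called between WT ISO and KO untreated.

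The order of the 8 transcripts per kilobase also differed between the groups. In KO ISO hearts Sgca was highest at 36.6, followed by Sspn at 30.2, Dag1 at 26.9 and Sgcb at 24.6, and each of these overlapped its neighbour in the order. Utrn at 6.93 stood above Dmd at 4.83 and Dtna at 4.39, which overlapped each other, and Sgcd was last at 2.68, below every Dtna value. In WT ISO hearts Dag1 led at 49.5, with Sspn at 44.3 in overlap, then Sgcb at 34.9 and Sgca at 34.2, which overlapped. Below them Utrn at 8.08, Dmd at 8.004, Sgcd at 7.12 and Dtna at 6.06 each overlapped the next. In KO untreated hearts Dag1 at 53.2, Sspn at 52.9 and Sgca at 51.0 overlapped in turn, and Sgcb followed at 32.96. Sgcd at 7.86 overlapped Utrn at 7.50, and Dtna at 7.05 overlapped Dmd at 7.03.

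Transcript length moved with the difference between KO ISO and WT ISO over all genes. Transcripts were split into 5 bins of about equal size by length. In the shortest bin, 151 to 1892 bases, 408 of 1699 genes were higher and 36 lower, with a median log2 difference of 0.15. In the longest bin, 5530 to 106824 bases, 100 of 1697 were higher and 487 lower, with a median of -0.12. Dag1 (5662 bases), Dtna (6295), Utrn (12382) and Dmd (14910) belong to the longest bin, and Sgca (1724) to the shortest. Sgcd, with 2450 bases, lies in the second shortest bin, where 178 of 1700 genes were higher and 171 lower and the median was -0.0040. With each library corrected for length and GC content, the 6 genes were still called, at -1.18 for Sgcd, -0.83 for Dag1, -0.51 for Dmd, -0.44 for Sspn, -0.39 for Sgcb and -0.30 for Dtna, while Utrn was at -0.05. Over all genes, 1574 were called with that correction, beside 2379 without it.

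**Figure D3:**
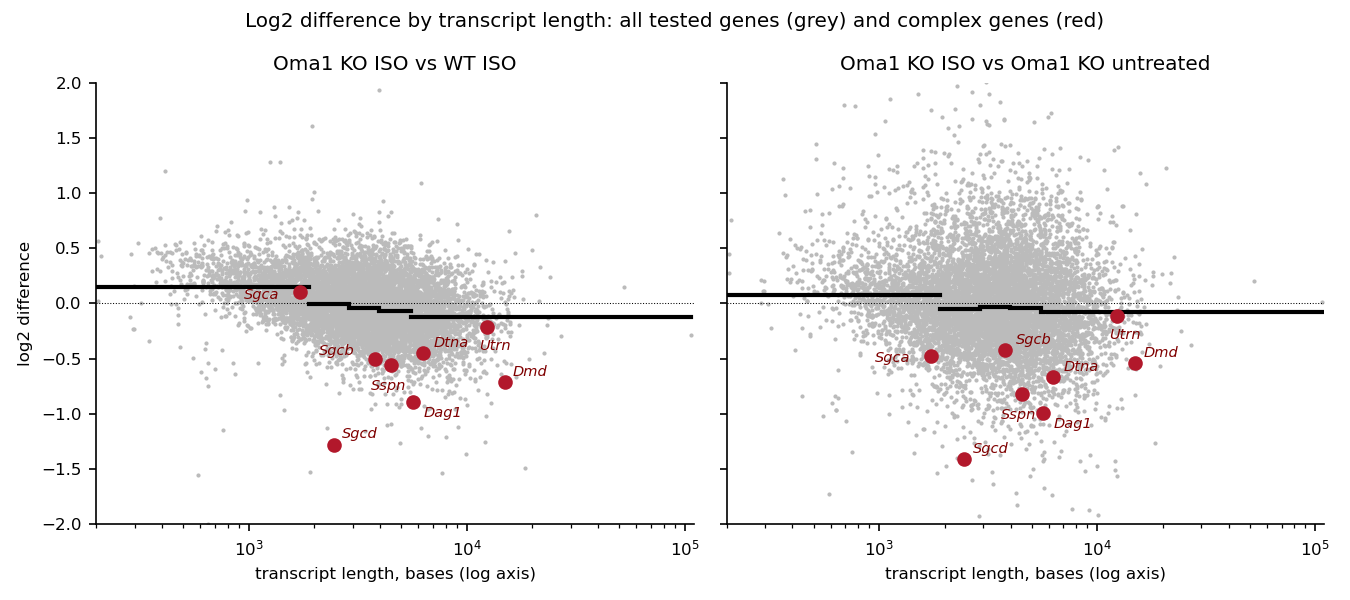
Log2 difference (y axis) against transcript length in bases (x axis, log scale) for all tested genes with an annotated length (grey) and the 8 complex genes (red), for KO ISO minus WT ISO on the left and KO ISO minus KO untreated on the right; black lines are medians of 5 bins by length. The y axis ends at 2 on either side, so that up to 5 genes on the left and up to 34 on the right are not drawn; Sgcd lies well below the median of its bin in both panels.

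Other subunits of the complex moved by less than Sgcd, in both directions. Of 9 other sarcoglycans, syntrophins and a dystrobrevin on the list, 6 were listed and 4 were tested. Of these 4, 1 was lower and 0 were higher in KO ISO than in WT ISO, beside 15.9% lower and 12% higher of all genes tested. Against KO untreated, 1 was lower and 2 were higher, beside 27.4% lower and 23.9% higher of all genes. With 4 genes tested, these counts are too small to set apart from those shares. Sgce, epsilon-sarcoglycan, which is also expressed outside muscle, averaged 15.5 ± 1.75 in KO ISO, 15.0 ± 0.638 in WT ISO and 11.7 ± 1.63 in KO untreated hearts (SD, n = 3 each). It was higher in KO ISO than in KO untreated (log2 difference 0.38, limma adjusted p = 0.0143), a call lost without KO ISO replicate 1 (0.33, adjusted p = 0.0601), KO untreated replicate 1 (0.33, 0.0549) or KO untreated replicate 2 (0.33, 0.0589), with differences of similar size. Sntb2, a syntrophin, was at 10.8 ± 0.715 in KO ISO and 7.66 ± 1.21 in KO untreated hearts (0.45, adjusted p = 0.00808). In WT ISO hearts it was at 12.9 ± 0.502, also higher than in KO untreated (0.69, adjusted p = 0.00105).

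The next list holds genes that anchor channels and signalling proteins near dystrophin. Of 22 on the list, 17 were tested, of which 8 were lower and 2 higher in KO ISO than in WT ISO (median log2 difference -0.25), beside 15.9% lower and 12% higher of all genes tested. Against KO untreated, 9 were lower and 2 higher (median -0.27), beside 27.4% lower and 23.9% higher of all genes. Ank3, ankyrin-G, a membrane adaptor, averaged 31.6 ± 3.56 in KO ISO, 48.5 ± 1.71 in WT ISO and 51.6 ± 1.55 in KO untreated hearts, with log2 differences of -0.61 from WT ISO and -0.70 from KO untreated. Also lower in KO ISO were Flnc, filamin C, an actin crosslinker that binds sarcoglycans (-0.38 from WT ISO), Grb2, an adaptor that binds dystroglycan (-0.53 from KO untreated), and Kcnj12, an inward rectifier potassium channel, at 6.52 ± 1.31 in KO ISO, 8.96 ± 1.58 in WT ISO and 18.6 ± 2.45 in KO untreated hearts. Kcnj12 was lower than in KO untreated both in KO ISO (-1.38, limma adjusted p = 1.53e-05) and in WT ISO (-0.98, adjusted p = 0.000463), and did not pass between KO ISO and WT ISO (-0.41, adjusted p = 0.07). It averaged under 10 in both treated groups and met the filter of 10 through its KO untreated libraries. Ptrf, cavin-1, a caveolar coat protein, went the other way, with 278 ± 24.3 in KO ISO, 224 ± 7.92 in WT ISO and 189 ± 10.4 in KO untreated hearts.

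Another list holds the enzymes that build the laminin-binding sugar of dystroglycan. Of 19 on the list, 15 were tested, of which 1 was lower and 0 higher in KO ISO than in WT ISO, where 15.9% of all genes were lower and 12% higher. Against KO untreated, 7 were lower and 1 higher, where 27.4% of all genes were lower and 23.9% higher. Large, which extends the matriglycan chain that laminin binds, was the gene lower in both, with 43.5 ± 4.30 in KO ISO, 58.4 ± 3.69 in WT ISO and 60.9 ± 0.315 in KO untreated hearts (-0.42, limma adjusted p = 0.00337, and -0.48, adjusted p = 0.000325). Pomgnt1 (-0.41) and Dolk (-0.45) were lower in KO ISO than in KO untreated, calls that were lost on the scale of the cardiomyocyte markers.

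Genes of a basement membrane list were mostly higher in KO ISO than in KO untreated hearts. The list holds ligands of dystroglycan, and also nidogens and laminin beta and gamma chains. Of 13 genes on the list, 11 were tested, of which 8 were higher and 1 lower in KO ISO than in KO untreated hearts (median log2 difference 0.71), beside 23.9% higher and 27.4% lower of all genes tested. Between WT ISO and KO untreated 8 were higher and 2 lower (median 0.79), beside 16.4% higher and 16.9% lower of all genes. Against WT ISO, 2 were higher and 1 lower in KO ISO (median -0.06), beside 12% higher and 15.9% lower. Lama2, the laminin chain of the muscle basement membrane, averaged 95.9 ± 9.10 in KO ISO, 135 ± 7.29 in WT ISO and 106 ± 2.48 in KO untreated hearts. It was lower in KO ISO than in WT ISO (-0.50, limma adjusted p = 0.00126). It was not called between KO ISO and KO untreated (-0.15, adjusted p = 0.13), and was higher in WT ISO than in KO untreated (0.35, adjusted p = 0.00479). Higher in KO ISO than in WT ISO was Agrn, agrin, at 115 ± 15.5 in KO ISO and 76.9 ± 2.28 in WT ISO hearts (0.56, adjusted p = 0.00118). So was Lama5, a laminin chain of vessels and epithelia, at 164 ± 7.08 in KO ISO and 121 ± 12.2 in WT ISO hearts. Lama5 was at 144 ± 9.60 in KO untreated hearts and not called between KO ISO and KO untreated (0.19, adjusted p = 0.0701). Against KO untreated, Nid1, a nidogen, had 225 ± 12.7 in KO ISO and 117 ± 7.39 in KO untreated hearts (0.94), and Lama4, a laminin chain of vessels, had 130 ± 5.28 in KO ISO and 69.4 ± 6.56 in KO untreated hearts (0.90). Lamb1 and Lamc1, the laminin chains shared by several trimers, were higher by 0.71 and 0.73. The endothelial and fibroblast marker sums given above were also higher in KO ISO than in KO untreated hearts, and their part in this result was not tested.

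The costamere and its integrins, which link the same membrane to laminin in parallel, form the next list. All 23 genes were tested, of which 9 were lower and 1 higher in KO ISO than in WT ISO (median log2 difference -0.18), beside 15.9% lower and 12% higher of all genes tested. Against KO untreated 7 were lower and 7 higher (median -0.06), near the 27.4% lower and 23.9% higher of all genes. Vcl, vinculin, had 99.6 ± 1.64 in KO ISO and 132 ± 9.59 in WT ISO hearts (-0.40, limma adjusted p = 0.00233), and Tln2, talin-2, had 63.9 ± 5.52 in KO ISO and 86.3 ± 8.06 in WT ISO hearts (-0.43). Itgb1, the beta-1 integrin, was at -0.32 from WT ISO, with 387 ± 10.3 in KO ISO, 483 ± 25.8 in WT ISO and 345 ± 3.61 in KO untreated hearts. It was higher in WT ISO than in KO untreated (0.48, adjusted p = 0.000142) and not called between KO ISO and KO untreated (0.16, adjusted p = 0.0516). Lims2, an integrin adaptor also called PINCH2, was higher in KO ISO than in WT ISO (0.53). Itga7, the main laminin-binding alpha integrin of muscle, had 92.0 ± 6.21 in KO ISO and 150.5 ± 4.17 in KO untreated hearts (-0.71), and Svil, supervillin, was also lower there (-0.62). Flna, filamin A (0.93), and Spna2, non-erythroid alpha-spectrin (0.77), were higher in KO ISO than in KO untreated hearts. WT ISO differed from KO untreated in the same directions for these genes. The differences were -0.44 for Itga7, -0.29 for Svil, 0.67 for Flna and 0.67 for Spna2.

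Membrane repair genes include dysferlin, annexins, calpains and caveolar proteins. Of 20, 19 were tested, with 10 higher and 4 lower in KO ISO than in KO untreated hearts (median log2 difference 0.29), beside 23.9% higher and 27.4% lower of all genes tested. Between WT ISO and KO untreated 11 were higher and 1 lower (median 0.29), beside 16.4% higher and 16.9% lower of all genes. Against WT ISO 4 were higher and 3 lower (median 0.02), beside 12% higher and 15.9% lower of all genes. Anxa2, annexin A2, a calcium-dependent membrane-binding protein, had 119 ± 17.1 in KO ISO and 49.5 ± 0.925 in KO untreated hearts (1.24), and S100a10, its partner, 36.3 ± 3.48 in KO ISO and 15.0 ± 2.46 in KO untreated hearts (1.22). Cav1, caveolin-1 (0.86), and Ehd2, which restrains caveolae at the membrane (0.83), were higher there too, and Ehd2 was higher in KO ISO than in WT ISO (0.27, limma adjusted p = 0.0103). Bves and Popdc2, membrane proteins of cardiomyocytes, were at -0.43 and -0.31 from WT ISO, and S100a10 at 0.40, but these calls did not hold in every setting, while the signs of the differences below stayed the same. That of Bves was lost without KO ISO replicate 2 (-0.38, adjusted p = 0.0547) or WT ISO replicate 2 (-0.32, 0.0648), and after length and GC correction (-0.31, 0.0714). That of Popdc2 was lost without KO ISO replicate 2 (-0.22, 0.0691), WT ISO replicate 1 (-0.29, 0.0607) or WT ISO replicate 2 (-0.28, 0.0684). That of S100a10 was lost without KO ISO replicate 3 (0.34, 0.0588) or WT ISO replicate 1 (0.35, 0.0594), and after length and GC correction (0.22, 0.179).

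**Figure D4:**
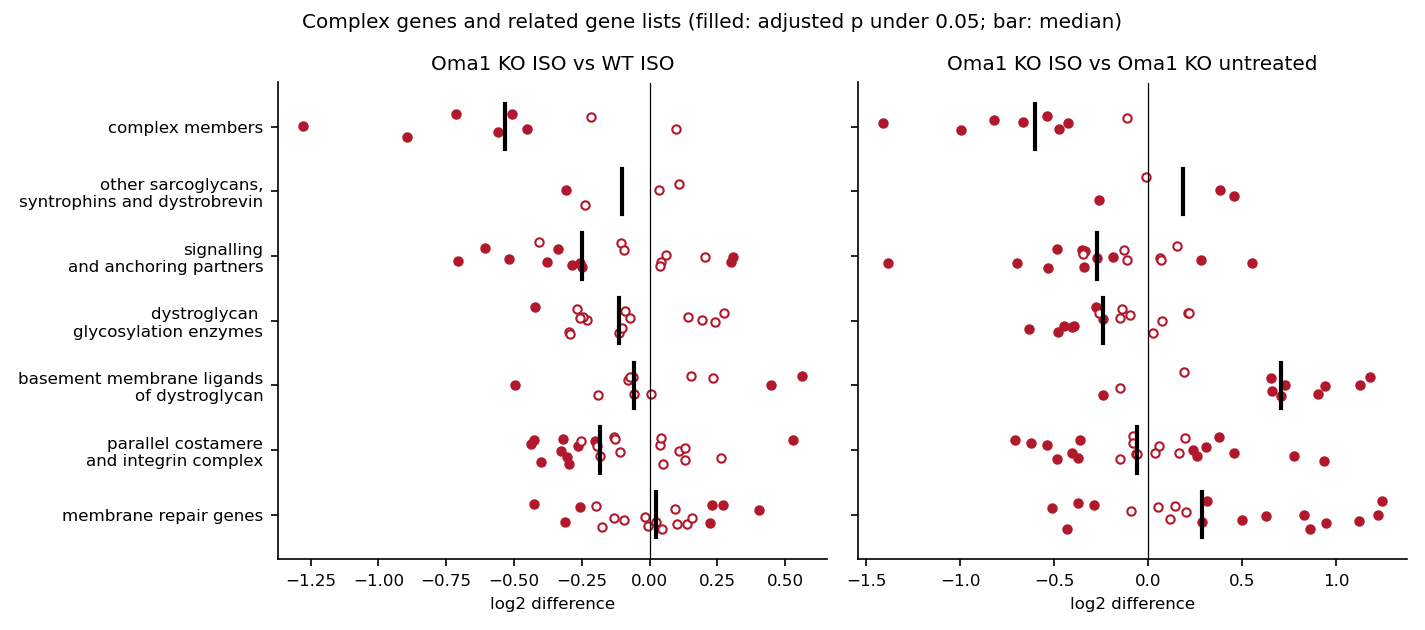
Log2 difference of every tested gene (points, filled where the limma adjusted p was under 0.05) in the complex and in 6 related lists, with the median of each list as a bar, for KO ISO minus WT ISO on the left and KO ISO minus KO untreated on the right. The median of the complex genes is -0.53 and -0.60 in the 2 panels. That of the basement membrane list, which holds ligands of dystroglycan and other basement membrane genes, is -0.06 and 0.71.

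To describe which genes had profiles like those of Sgcd and Dmd, each gene was centred on its mean log2 value over the 9 libraries and compared by the root mean square difference. The nearest to Sgcd were Pdpr (0.135), the regulatory subunit of the phosphatase that activates pyruvate dehydrogenase, Tead1 (0.153), a TEAD factor, Lnpep (0.171), an aminopeptidase of insulin-responsive vesicles, Pm20d2 (0.183) and Palld (0.203), palladin of the actin cytoskeleton, beside a median of 0.663 over all genes. Pdpr averaged 30.6 in KO ISO, 74.5 in WT ISO and 91.8 in KO untreated hearts, and Tead1 44.6, 115 and 124 in the same order. Whether Tead1 acts on any of the 8 genes was not tested. Among the 5 nearest to Dmd were Dmxl1 (0.0755), Tnks (0.0890), tankyrase, Vps13c (0.0915), a lipid transfer protein, and Pds5a (0.0940), a cohesin regulator, beside a median of 0.357. All points come from the same 9 libraries in 3 groups, so any genes that differ between these groups in the same way are near each other.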

How the data were processed

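Heart total RNA of 3 groups with 3 libraries each was measured. The deposited values, used as a normalised signal, were read as whole reads multiplied by a single factor per library. Below a set limit of reads, every value above 0 was a whole number of reads within a tolerance of 0.02. Larger values were not checked in this way and were rounded to whole reads. The authors used cutadapt, RSEM and limma with build GRCm38, per the submitters' processing notes; for the aligner, the counting settings and the rule by which genes were listed, the sources used here give nothing. The 13539 genes were filtered to the 8543 that reached 10 in 3 or more of the 9 libraries. Genes low in part of the groups could pass this filter through the rest, as Sgcd, Kcnj12 and Oma1 did. Log2(value + 1) was fitted with limma (3.58.1, R 4.3.3) with a mean-variance trend and 3 group means over all 9 libraries, and p-values were adjusted by Benjamini-Hochberg over all genes tested, with a threshold of 0.05. Ratios were tested by exact two-sided permutation. Positions and lengths are those of GENCODE M21, which held 13385 of the gene identifiers, and promoters those of RefSeq. Alternatives used edgeR 4.0.16 and DESeq2 1.42.0 on the recovered reads, voom, other scalings, filters and pseudocounts, a spline correction (5 df) for length and GC content, a replicate block, and each library left out. The fit was tested on simulated data. Replicate libraries differed by more than counting noise.

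All 8 genes are described whatever their p, and of each other list up to 4 genes with the smallest p in a comparison. Genes nearest in profile were taken for Sgcd and Dmd. Some genes that this rule takes are not reported here. The members and lists were chosen with earlier results of these data known. Precision is limited by 3 libraries per group and, for Sgcd, by counts under 100 in KO ISO.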

Additional observations from a re-analysis of the deposited data

How the results depend on the processing

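The 6 genes lower in KO ISO than in WT ISO were called in the same direction under every alternative that tested them; a filter at a mean of at least 20 removed Sgcd, and added Utrn. Against KO untreated, 7 were called under 25 of 26 alternatives and 6 under that filter. Over all genes, 3235 to 5595 were called there under the alternatives. Between WT ISO and KO untreated, where 1 was called, 2 were called with only those groups in the fit or with DESeq2, 3 with length and GC correction, with or without the replicate block, 4 on the scale of the cardiomyocyte markers (where the median of all genes was 0.17), and 1 to 3 with a library left out. Over all genes, 2839 were called there in the main fit, 2607 with length and GC correction and 3201 on the marker scale. These counts out of 8 are therefore not read as a result about the members. Of all genes tested, 2379 were called between KO ISO and WT ISO, but 1574 with length and GC correction, 1416 with that and the replicate block, and 1342 to 2380 with a library left out. The cause was not tested. Signs turned only for genes that were not called. With length and GC correction, with or without the block, these were Sgca (-0.066) between KO ISO and WT ISO, and Sgcb (-0.028) and Utrn (-0.0024) between WT ISO and KO untreated. On the marker scale they were Utrn (0.10) between KO ISO and KO untreated, and Sgcd (0.026) and Dag1 (0.065) between WT ISO and KO untreated. Sgce ranged from -0.020 to 0.125 against WT ISO with a library left out, and was -0.0028 without KO ISO replicate 2. The replicate numbers share no stated animal or batch, and same-numbered libraries deviated together with correlations of only -0.14 to 0.18, so they were not treated as pairs; with the replicate block 2258, 4316 and 2755 genes were called in the 3 comparisons (2379, 4388 and 2839 without it), and 6, 7 and 1 of the 8 genes.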
